A study of Mus musculus with 2 samples.

Results

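The miR-181 family in unstimulated bone marrow derived macrophages (BMDMs) is described here from small RNA sequencing. Members were chosen by name and make up 7 of the 1915 mature miRNA names in the count table. They are the 5p arms mmu-miR-181a-5p, mmu-miR-181b-5p, mmu-miR-181c-5p and mmu-miR-181d-5p, and the 3p arms mmu-miR-181a-1-3p, mmu-miR-181a-2-3p and mmu-miR-181c-3p, whose sequences differ between the 3 genomic loci of the family. The table holds 10 names that begin with miR-181, and the other 3 (miR-181b-1-3p, miR-181b-2-3p and miR-181d-3p) come from the same hairpins and are given beside the members. BMDMs are macrophages grown in culture from bone marrow progenitors. The cells came from wild type mice of the C57/BL6 strain at 8 weeks of age and received no stimulus. The labels give 2 biological replicates of this single condition, without saying which animals or cultures they came from, and another library of the study is not analysed here. Replicate 1 held 7322969 miRNA counts and replicate 2 held 8094314.

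A miRNA hairpin is cut from a longer transcript in the nucleus and trimmed in the cytoplasm to a short duplex, of which a single strand is usually kept in an Argonaute protein while its partner is degraded. The kept strand recognises target mRNAs mainly through its seed, the bases near its 5' end. miR-181 is a conserved vertebrate family that is best known from lymphocytes, where miR-181a tunes the sensitivity of the T cell receptor and is made at high levels in developing thymocytes, and from endothelial and myeloid cells, where members dampen inflammatory signalling. Its hairpins lie in pairs at separate loci. The same mature 5p strand of miR-181a, and likewise of miR-181b, is cut from hairpins at a pair of loci, so the 5p count cannot be divided between them. Their 3p strands differ in sequence and name the hairpin they came from.

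The mature sequences, taken from RefSeq (GRCm38.p6), matched all 10 miR-181 names. The 5p arms are shown because they carry the function by which the family is defined, with the seed (bases 2 to 8) in capitals.
miR-181a-5p: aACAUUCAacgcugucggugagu
miR-181b-5p: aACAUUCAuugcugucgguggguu
miR-181c-5p: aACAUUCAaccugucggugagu
miR-181d-5p: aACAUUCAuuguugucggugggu
These 4 names share the seed ACAUUCA, and no other name with a sequence in the table has it. Counted from the 5' end, miR-181b-5p and miR-181d-5p differ by the single substitution C12U over 23 compared positions, with miR-181b-5p as the reference and the longer strand. From miR-181a-5p to miR-181b-5p there are 3 substitutions (A9U, C10U and A21G). miR-181c-5p equals miR-181a-5p with position 11 left out.

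The 3p arms are shown because they tell the loci apart, with capitals at the positions that are not the same in all 3 strands.
miR-181a-1-3p: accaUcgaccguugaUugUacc
miR-181a-2-3p: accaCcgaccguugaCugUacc
miR-181c-3p: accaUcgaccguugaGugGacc
With miR-181a-1-3p as the reference and positions counted from the 5' end, miR-181a-2-3p carries U5C and U16C, and miR-181c-3p carries U16G and U19G. The substitution U5C lies in the seed, so miR-181a-2-3p has the seed CCACCGA while miR-181a-1-3p and miR-181c-3p share CCAUCGA. The 3p arms of the miR-181b hairpins are closer to each other, with the single substitution A9U over 21 positions from miR-181b-1-3p to miR-181b-2-3p.

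The pair of hairpins that make miR-181a-5p are given by RefSeq on the plus strand of GRCm38.p6 at chr1:137966455-137966541 (Mir181a-1) and chr2:38852735-38852810 (Mir181a-2). They are printed with the 5p and the 3p strand in capitals, to show that the 5p strand is the same in both.
Mir181a-1: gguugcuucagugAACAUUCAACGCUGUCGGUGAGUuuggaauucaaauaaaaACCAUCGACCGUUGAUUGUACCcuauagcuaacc
Mir181a-2: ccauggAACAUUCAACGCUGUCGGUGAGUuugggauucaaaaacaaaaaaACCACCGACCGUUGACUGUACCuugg
In the GENCODE annotation of GRCm38, Mir181a-1 (ENSMUSG00000065565.1) and Mir181b-1 (ENSMUSG00000065458.1, chr1:137966639-137966718) lie 97 bases apart in an intron of the noncoding gene Gm4258 on the same strand. Mir181b-1 also lies in an exon of the noncoding gene A430106G13Rik, which overlaps the end of Mir181a-1. Both are opposite an intron of the noncoding gene Gm26936. On chromosome 2, Mir181a-2 (ENSMUSG00000065423.1) and Mir181b-2 (ENSMUSG00000065578.1, chr2:38853830-38853918) are separated by 1019 bases and lie opposite an intron of Nr6a1, a gene for an orphan nuclear receptor. Mir181b-2 also lies opposite an exon of the unclassified gene Gm44144. On the minus strand of chromosome 8, Mir181c (ENSMUSG00000065483.2, chr8:84178873-84178961) and Mir181d (ENSMUSG00000076338.1, chr8:84178716-84178787) are 85 bases apart in an intron of Nanos3, a gene known for its role in germ cells.

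The 7 members together held 92125 counts in replicate 1 and 103450 in replicate 2. This was 1.26% of all miRNA counts in replicate 1 (95% Wilson interval 1.25 to 1.27) and 1.28% in replicate 2 (1.27 to 1.29), with a mean of 1.27% ± 0.0142 (SD, n = 2). Nearly all of it was 5p strand, since the 4 members of that arm accounted for 97.5% ± 0.349 (SD, n = 2) of the sum over all 10 miR-181 names. Shares of counts need not equal shares of molecules, because ligation and amplification favour some sequences over others. Wilson and exact intervals cover counting error only, since reads amplified by PCR are not independent molecules. In a bulk sample, fewer cells with a miRNA and less of it in each cell cannot be told apart.

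miR-181a-5p, the member best known from lymphocyte development, was the most abundant. It held 75945 counts in replicate 1 and 86343 in replicate 2, or 10371 and 10667 counts per 1000000 miRNA counts (RPM). Its share of all miRNA counts was 1.05% ± 0.0210 (SD, n = 2), and it ranked 15 among all names in replicate 1 and 16 in replicate 2. It made up 84.7% of the counts of the 4 miR-181 5p arms in replicate 1 and 85.3% in replicate 2. By mean share its direct neighbours were miR-99b-5p above (1.13% ± 0.416, SD, n = 2) and miR-148a-3p below (0.914% ± 0.0512, SD, n = 2). The gap to miR-99b-5p was smaller than the SD of that miRNA, which lay below miR-181a-5p in replicate 1 (0.835%) and above it in replicate 2 (1.42%), while the gap to miR-148a-3p exceeded both SDs. By Euclidean distance of log2 RPM over the 2 libraries, the names nearest to it were miR-148a-3p (distance 0.31), miR-186-5p (0.44) and miR-378a-3p (0.49).

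miR-181b-5p, known for dampening NF-kB signalling in endothelium, followed with 11515 counts in replicate 1 and 12926 in replicate 2. These were 1572 and 1597 RPM, a mean share of 0.158% ± 0.00173 (SD, n = 2). The count of miR-181a-5p was 6.60 times that of miR-181b-5p in replicate 1 and 6.68 times in replicate 2. Of its neighbours by mean share, miR-101a-3p above (0.162% ± 0.0183, SD, n = 2) lay within 1 SD and miR-151-3p below (0.153% ± 0.00303, SD, n = 2) did not.

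miR-181c-5p and miR-181d-5p are the 5p strands whose hairpins lie on chromosome 8 alone, though reads of the more abundant miR-181b-5p could be counted under miR-181d-5p, which was not tested. miR-181c-5p held 1920 counts in replicate 1 and 1593 in replicate 2, or 262 and 197 RPM. miR-181d-5p held 306 and 335 counts, or 41.8 and 41.4 RPM. miR-181c-5p was therefore 6.27 times as abundant as its neighbour in replicate 1 and 4.76 times in replicate 2. Together both made up 2.48% of the counts of the 4 miR-181 5p arms in replicate 1 (95% Wilson interval 2.38 to 2.59) and 1.91% in replicate 2 (1.82 to 1.99). The remaining 97.8% ± 0.408 (SD, n = 2) of the 5p counts belonged to miR-181a-5p and miR-181b-5p, which can come from chromosome 1 or chromosome 2. The neighbours of miR-181c-5p by mean share, miR-30d-3p (0.0243% ± 0.00474, SD, n = 2) above and miR-148b-5p (0.0221% ± 0.00425, SD, n = 2) below, were within its SD. The gaps of miR-181d-5p to miR-126a-5p above (0.00419% ± 0.000929, SD, n = 2) and to miR-664-5p below (0.00415% ± 0.000532, SD, n = 2) were smaller than the SDs of those miRNAs.

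**Figure D1:**
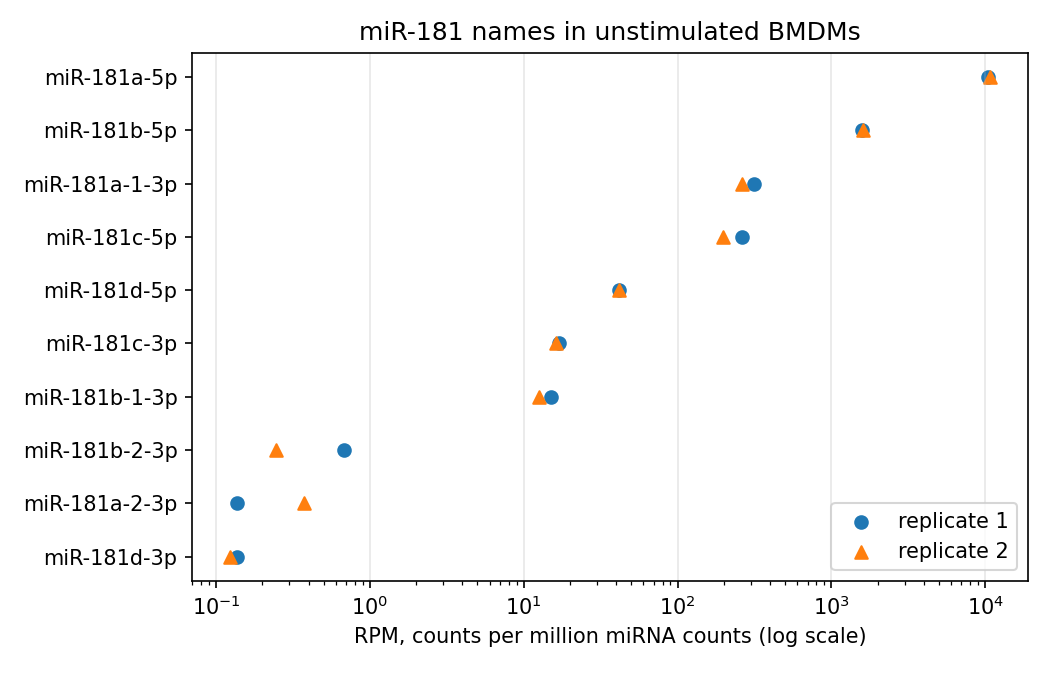
RPM (log axis) of the 10 miR-181 names in the 2 libraries of unstimulated BMDMs, with circles for replicate 1 and triangles for replicate 2. The 5p arm of miR-181a lies above 10000 in both libraries, and miR-181a-2-3p, miR-181b-2-3p and miR-181d-3p lie below 1.

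The 3p strands of miR-181a came almost wholly from the hairpin on chromosome 1. miR-181a-1-3p held 2313 counts in replicate 1 and 2119 in replicate 2, or 316 and 262 RPM. It ranked 101 and 110 among all names, close to miR-181c-5p. miR-181a-2-3p, its counterpart from chromosome 2, held 1 count in replicate 1 and 3 in replicate 2. The ratio of miR-181a-1-3p to miR-181a-2-3p was 2313 in replicate 1 (95% exact interval 415 to 91398) and 706 in replicate 2 (241 to 3428). Both libraries gave the same order, and the intervals are wide because so few reads of miR-181a-2-3p were counted.

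miR-181c-3p, from chromosome 8, held 125 counts in replicate 1 and 131 in replicate 2, or 17.1 and 16.2 RPM. miR-181a-1-3p was 18.5 times as abundant in replicate 1 (95% exact interval 15.5 to 22.3) and 16.2 times in replicate 2 (13.6 to 19.4). The ratio of miR-181c-3p to miR-181a-2-3p was 125 in replicate 1 (22.0 to 4976) and 43.7 in replicate 2 (14.6 to 214). Exact two-sided binomial tests of equal counts were made for the 3 pairs of arms within each library, 6 tests in all, and the largest Benjamini-Hochberg adjusted p was 3.68e-35. These tests cover counting error within a library, and no permutation over 2 libraries can pass a threshold of 0.05.

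As shares of the 3 locus-specific arms, chromosome 1 supplied 94.8% in replicate 1 (95% Wilson interval 93.9 to 95.6) and 94.1% in replicate 2 (93.0 to 94.96), a mean of 94.4% ± 0.553 (SD, n = 2). Chromosome 8 supplied 5.47% ± 0.487 (SD, n = 2) and chromosome 2 supplied 0.0871% ± 0.0652 (SD, n = 2). For chromosome 2 this was 0.0410% in replicate 1 (95% Wilson interval 0.00724 to 0.232) and 0.133% in replicate 2 (0.0453 to 0.391). The order of the loci was chromosome 1, chromosome 8, chromosome 2 in both libraries. The locus on chromosome 1 was thus the main source of the 3p counts in both libraries.

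The 3p arms of the neighbouring hairpins gave the same order for the loci on chromosomes 1 and 2. miR-181b-1-3p, from chromosome 1, held 110 counts in replicate 1 and 102 in replicate 2. miR-181b-2-3p, from chromosome 2, held 5 and 2 counts. Their ratio was 22.0 in replicate 1 (95% exact interval 9.15 to 69.1) and 51.0 in replicate 2 (13.8 to 427). miR-181d-3p, from chromosome 8, held 1 count in each library, fewer than miR-181b-2-3p. The place of chromosome 8 above chromosome 2 thus rested on miR-181c-3p alone. Summed over the 3p arms of all 6 hairpins, chromosome 1 supplied 94.5% ± 0.455 (SD, n = 2), chromosome 8 supplied 5.26% ± 0.471 (SD, n = 2) and chromosome 2 supplied 0.223% ± 0.0161 (SD, n = 2).

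A division by 3p strands has limits. It assumes that the hairpins keep the same fraction of their 3p strand, and the mean 5p to 3p ratios of miR-181a (36.8), miR-181b (112) and miR-181c (13.8) were not the same. For the separate hairpins of miR-181a-5p and miR-181b-5p this fraction was not measured, since their 5p counts were not divided. The locus on chromosome 8, the only locus with 5p strands of its own, supplied 2.19% ± 0.408 (SD, n = 2) of the 5p counts beside 5.26% ± 0.471 (SD, n = 2) of the 3p counts, so the arms did not give the same share for it. The mismatches the authors allowed are not given in the sources used here, and whether reads moved between strands that differ by 1 or 2 bases was not tested.

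**Figure D2:**
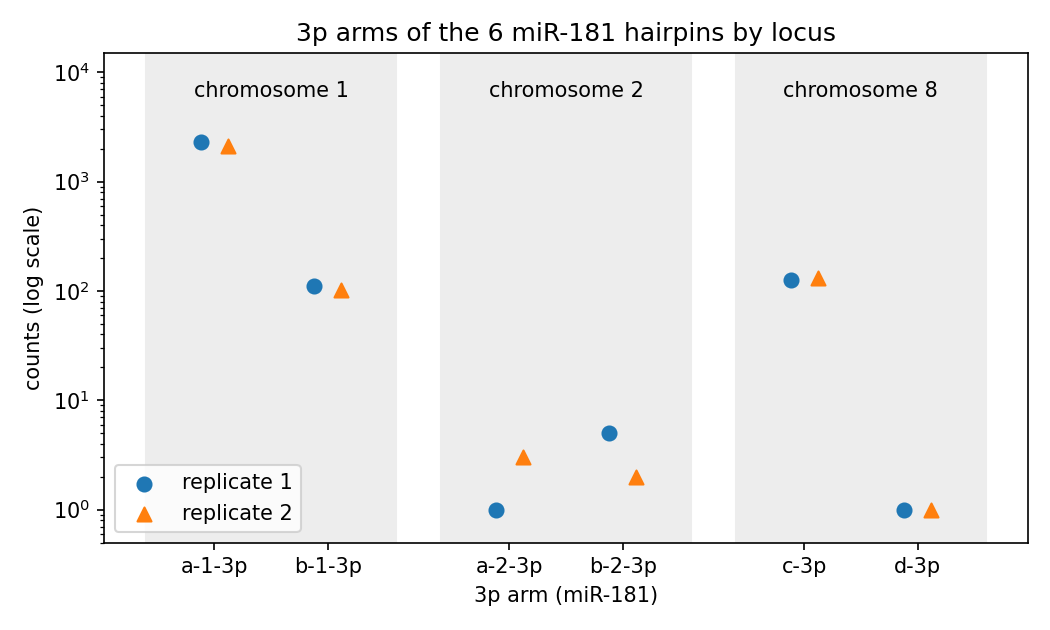
Counts (log axis) of the 3p arms of the 6 miR-181 hairpins, grouped by chromosome, with circles for replicate 1 and triangles for replicate 2. In each library miR-181a-1-3p lies at 2119 counts or more, while the arms from chromosome 2 lie at 5 counts or fewer.

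In the order of mean share, the members ran from miR-181a-5p over miR-181b-5p, miR-181a-1-3p, miR-181c-5p, miR-181d-5p and miR-181c-3p to miR-181a-2-3p. Each of the 6 pairs of neighbours in this order differed in the same direction in both libraries by exact two-sided binomial tests, with a largest adjusted p of 1.65e-09 over 12 tests. The order was taken from the same counts, and these p-values treat reads as independent, so they say only that neighbours differed beyond counting error within a library. The closest pair was miR-181a-1-3p and miR-181c-5p, with a ratio of 1.20 in replicate 1 (95% exact interval 1.13 to 1.28) and 1.33 in replicate 2 (1.25 to 1.42). The gap between their mean shares was 1.28 times the larger of their SDs. For the other pairs it was from 4.06 to 42.6 times the larger SD.

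The arms of neighbouring hairpins did not have equal counts. On chromosome 1, miR-181a-1-3p was 21.03 times as abundant as miR-181b-1-3p in replicate 1 and 20.8 times in replicate 2, a wider ratio than that of their 5p arms. The 5p arms of miR-181a and miR-181b, which also take in chromosome 2, stood at 6.64 ± 0.0597 (SD, n = 2). Between hairpins that are not neighbours, the 5p strand of miR-181a was more abundant than that of miR-181c by 39.6 times in replicate 1 and 54.2 times in replicate 2.

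Other miRNAs with locus-specific arms showed how far such a division can go in the same libraries. Names that differ only in -1- and -2- before the arm, with at least 100 counts summed over the pair, gave 15 pairs. The copy with more counts held from 52.0% to 100% of its pair by mean share, and 10 pairs lay above 95%. In 4 of them (let-7a, miR-7a, miR-92a and miR-128) the other copy had 0 counts in both libraries. miR-181a ranked 5 with 99.9% ± 0.0694 (SD, n = 2) for the copy on chromosome 1, followed by miR-24 with 98.8% ± 0.372 (SD, n = 2), miR-125b with 98.0% ± 0.465 (SD, n = 2) and miR-129 with 98.0% ± 0.336 (SD, n = 2). miR-181b ranked 9 with 96.9% ± 1.71 (SD, n = 2), above miR-30c with 95.6% ± 0.592 (SD, n = 2), let-7c with 92.4% ± 0.520 (SD, n = 2) and miR-26a with 88.8% ± 1.77 (SD, n = 2). The copies were closer to equal for miR-16 (58.4% ± 3.40, SD, n = 2), miR-29b (55.6% ± 8.89, SD, n = 2) and let-7f (52.0% ± 6.63, SD, n = 2), and for miR-29b and let-7f the copy with more counts was not the same in both libraries. The names let-7a-1-3p and let-7c-2-3p held the same counts (1378 in replicate 1 and 1092 in replicate 2), so their pairs share reads. A strong lean to a single copy was thus common among these pairs, and was not particular to miR-181.

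**Figure D3:**
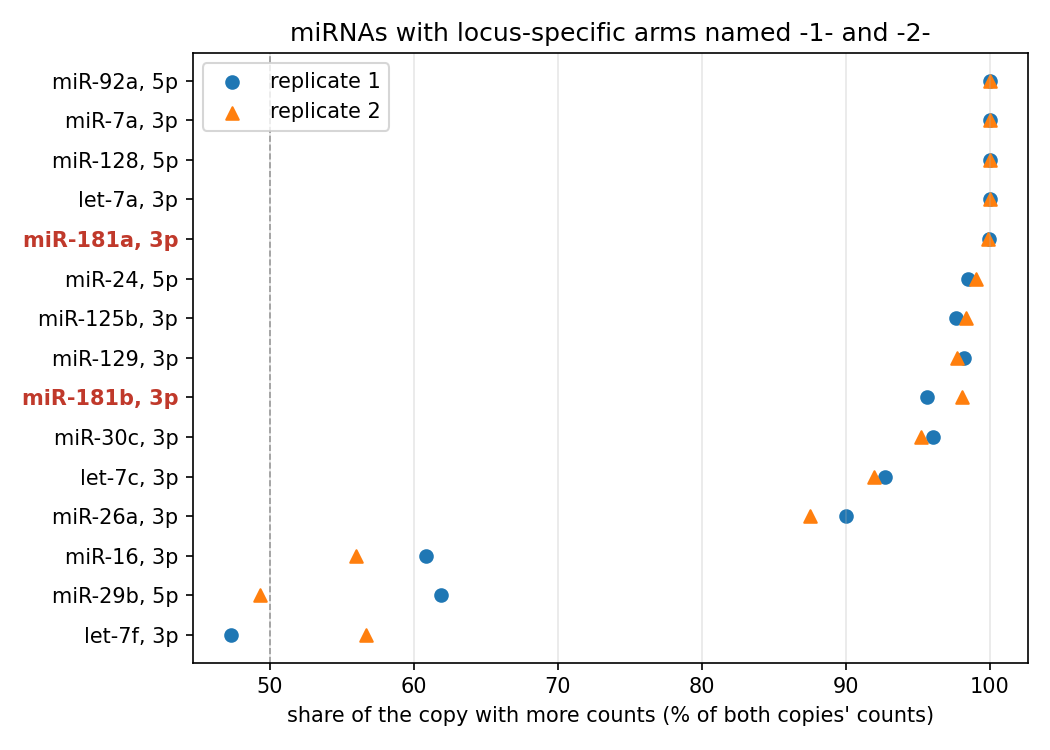
Share of the copy with more counts, as a percent of both copies' counts, for the 15 pairs of arms named -1- and -2-, with circles for replicate 1 and triangles for replicate 2; the dashed line marks equal counts. miR-181a (99.9%) and miR-181b (96.9%), in bold, lie in the upper group, and miR-16, miR-29b and let-7f lie near the line.

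Arm use differed among the miR-181 hairpins. For miR-181a, with the 3p counts of both hairpins summed, the 5p to 3p ratio of counts was 32.8 in replicate 1 and 40.7 in replicate 2, a mean of 36.8 ± 5.56 (SD, n = 2). For miR-181b it was 100.1 and 124, a mean of 112 ± 17.1 (SD, n = 2). For miR-181c it was 15.4 and 12.2, a mean of 13.8 ± 2.26 (SD, n = 2). The order miR-181b, miR-181a, miR-181c held in both libraries, with gaps larger than the SDs. For miR-181d the ratio rested on 1 count of the 3p arm in each library (306 and 335). All 4 kept more 5p than 3p counts.

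Where each arm reached 10 counts over both libraries, 180 name roots could be compared, of which 98 had more 5p than 3p counts, with a median ratio of 12.7 among those 98. From counts summed over both libraries, 36 of 179 other roots (20.1%) had a higher ratio than miR-181a, 18 (10.1%) a higher ratio than miR-181b and 46 (25.7%) a higher ratio than miR-181c. All of these were among the 97 other roots with more 5p than 3p counts. The other roots in each comparison include the remaining miR-181 roots. The miR-181 hairpins were thus on the side of the 5p strand, within the range of other miRNAs.

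**Figure D4:**
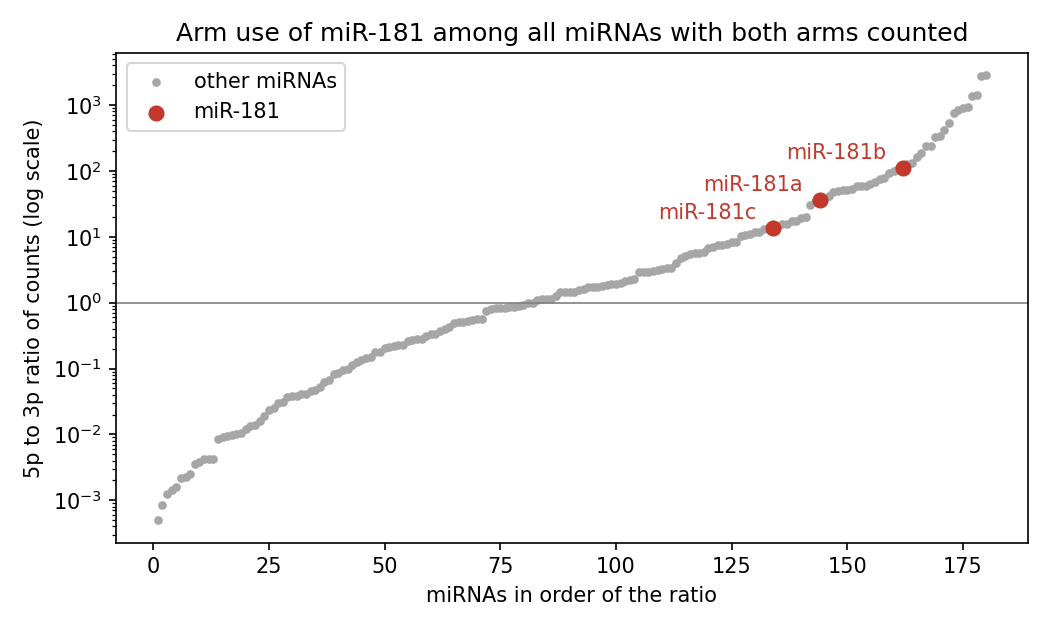
Ratio of 5p to 3p counts (log axis), summed over both libraries, for the 180 miRNA name roots whose arms each reached 10 counts, in order of the ratio; miR-181a, miR-181b and miR-181c are marked. All 3 lie above the line of equal counts, at 36.6, 112 and 13.7.

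Summed by seed, the 4 miR-181 5p arms held 1.22% of all miRNA counts in replicate 1 and 1.25% in replicate 2, a mean of 1.24% ± 0.0180 (SD, n = 2). This placed the family at rank 12 of 720 seed families with counts. Directly above was the family led by miR-26a-5p (1.81% ± 0.132, SD, n = 2) and directly below the family led by miR-99b-5p (1.21% ± 0.436, SD, n = 2). The order of the miR-181 and miR-99b families was not resolved, because it changed between the libraries: in replicate 1 miR-181 stood above miR-99b (1.22% against 0.898%), and in replicate 2 below it (1.25% against 1.51%). Within the miR-181 seed family miR-181a-5p supplied 85.0% of the mean share. RefSeq gave a sequence for 1623 of the 1915 names, which held 94.2% of the counts in replicate 1 and 93.4% in replicate 2. Of the names without a sequence there, miR-30d-5p (3.16%) and miR-378a-3p (1.34%) each had a higher mean share than the miR-181 family, so the rank holds only among names with a sequence.

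The libraries were compared to see how far the members vary between replicates; this compares 2 libraries, not conditions, and its p-values cover counting error only. Of the 7 members, 6 had at least 10 counts summed and were tested by Fisher's exact test, and 3 of them passed a Benjamini-Hochberg adjusted p of 0.05, where 44.2% of the 588 miRNAs tested did. None of the 6 differed by more than 2-fold between the libraries, where 7.81% did of the 448 miRNAs that reached 10 counts in each library. By library totals, both shares of the members were near those of the miRNAs at large. Under TMM and under DESeq2 scaling 4 of the 6 passed, where 259 and 251 of the 588 miRNAs did.

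In log2 ratios of replicate 2 to replicate 1, the median over those 448 miRNAs was -0.17 by library totals, -0.04 by TMM and -0.03 by DESeq2, and the SD by library totals was 0.55. The median of the 6 members was -0.05. The split of the miRNAs that passed moved with the scaling, from 81 higher and 179 lower in replicate 2 by library totals to 122 and 137 by TMM and 124 and 127 by DESeq2.

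miR-181c-5p was lower in replicate 2 under each of these scalings, with a log2 ratio of -0.41 by library totals (adjusted p = 1.38e-16 by Fisher's exact test), -0.28 by TMM and -0.27 by DESeq2. miR-181a-1-3p was lower as well, at -0.27 (adjusted p = 1.91e-09 by Fisher's exact test), -0.14 and -0.13. miR-181a-5p was higher in replicate 2 at 0.04 (adjusted p = 5.27e-08 by Fisher's exact test), 0.17 and 0.19, and this turned to -0.0040 when miR-21a-5p was left out of the totals. miR-181b-5p (0.02) did not pass by library totals and passed by TMM (0.15) and DESeq2 (0.17); it turned to -0.022 without miR-21a-5p. miR-181d-5p (-0.01) and miR-181c-3p (-0.08) did not pass under library totals, and both turned positive under TMM and DESeq2. Among the 448 miRNAs, 61.2% had a smaller absolute log2 ratio than miR-181c-5p, and 6.70% a smaller one than miR-181a-5p.

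**Figure D5:**
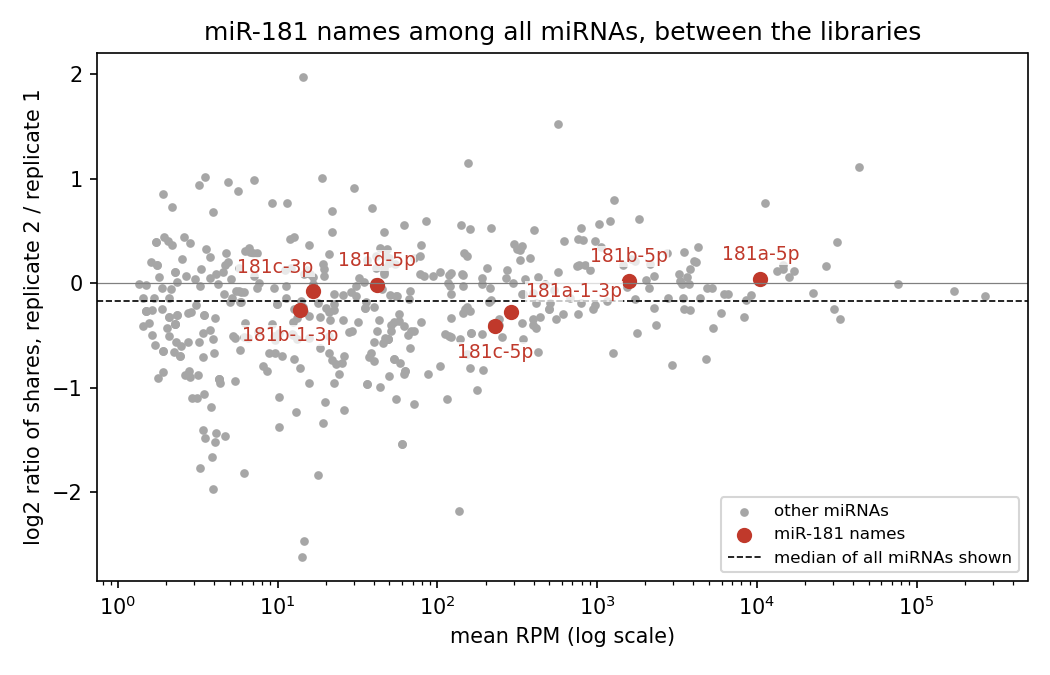
Log2 ratio of shares of replicate 2 to replicate 1 against mean RPM (log axis) for the 448 miRNAs that reached 10 counts in each library; miR-181 names are marked and the dashed line is the median (-0.17). The miR-181 names lie between -0.41 and 0.04, inside the spread of the others; by TMM or DESeq2 scaling miR-181d-5p and miR-181c-3p change sign, and without miR-21a-5p in the totals miR-181a-5p and miR-181b-5p do.

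Since miR-181 is also abundant in lymphocytes, the labelled cell type was checked against marker miRNAs of macrophages and of other cells. The 5 macrophage and myeloid names, led by miR-142a-5p (3.31%), all had counts in both libraries and summed to 4.96% of miRNA counts in replicate 1 and 3.78% in replicate 2. Most of this was miR-142a, which blood cells of all lineages make, lymphocytes included, so it does not tell macrophages from lymphocytes. miR-223-3p and both arms of miR-511, the more myeloid names, summed to 0.656% and 0.491%. The lymphocyte markers summed to 0.00280% and 0.00109%, with 202 and 88 counts of miR-150-5p. Of the 4 erythroid names, miR-486a-5p led with 0.0498%, while miR-451a, which defines erythroid cells, had 7 and 8 counts; the list summed to 0.0542% and 0.0456%. The fibroblast and smooth muscle list summed to 0.0239% and 0.0161%, led by miR-143-3p, the epithelial list to 0.0152% and 0.0165%, led by miR-200b-3p, and the endothelial and megakaryocyte list to 0.00625% and 0.00462%, led by miR-126a-5p. miR-122-5p of liver, miR-124-3p of neurons, and miR-1a-3p and miR-206-3p of striated muscle had 0 counts in both libraries, which allows up to 0.410 RPM in replicate 1 and 0.371 in replicate 2. The other neural marker, miR-9-5p, had 12 and 11 counts, and the other striated muscle marker, miR-133a-3p, had 0 and 6. Of the 9 lists, 6 had a lower sum in replicate 2 by library totals, the macrophage list among them. The part of other cells in the miR-181 counts was not tested.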

How the data were processed

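Small RNA libraries of 2 biological replicates were used. The authors depleted rRNA, prepared Illumina small RNA libraries, aligned trimmed reads to miRBase mouse stem-loops (Bowtie) and deposited raw counts per mature miRNA name, without normalization. The miRBase release and the rule for reads with several matches are not given in the sources used here. Among 21 names made from 2 RefSeq hairpins with at least 50 counts in each library, 10 had odd counts in each library, so doubling under the same name was not applied to every such name; reads counted under several names are another matter, and names with the same sequence can hold the same counts.

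Counts were divided by library totals. Wilson intervals were used for shares, and exact binomial intervals and tests for ratios. Between libraries, Fisher's exact test was used with Benjamini-Hochberg adjustment at 0.05, over miRNAs with at least 10 counts summed. Fisher's test was checked on simulated data that held counting error only, so the check does not cover other variation between replicates. Both libraries differed beyond counting error (chi-square of 292 per degree of freedom over 588 miRNAs) and were averaged as replicates. Alternatives were TMM (edgeR 4.0.16), DESeq2 1.42.0 size factors (1 in both libraries), other filters and totals, pooled reads, each library alone, cluster-wide 3p arms and bases 2 to 7 as seed. Python 3.11.15, scipy 1.17.1 and R 4.3.3 were used.

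Named miRNAs are the members, other miR-181 names, neighbours by mean share of the 5p members, the 3 nearest to miR-181a-5p, pairs named -1- and -2- with at least 100 counts, leaders of the adjacent seed families and 9 lists of cell type markers. miR-21a-5p, miR-30d-5p, miR-10a-5p, miR-10b-5p, let-7a-5p, let-7f-5p, miR-30a-5p and miR-30e-5p were named outside this rule, after their values were seen. The members and lists were chosen with earlier results of these data known.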

Additional observations from a re-analysis of the deposited data

How the results depend on the processing

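The share of the miR-181 family (1.27%) moved by more than the SD of the libraries under a pair of alternatives. Leaving miR-21a-5p out of the total gave 1.73%, as the total is then smaller, and counting the 4 miR-181 5p arms alone, an alternative chosen after seeing the data, gave 1.24%. The family's rank among seed families ran from 12 to 13 when each library was left out in turn. With 2 libraries, leaving out either moves a mean by less than the SD whatever the values are, so these alternatives say nothing about the stability of shares and ratios. For the 5p to 3p ratios themselves, pooling the reads was the only other alternative, so their stability was not tested. The share of chromosome 1 in the 3p counts was 94.4%, and 94.5% with the arms of all hairpins. The small share of chromosome 2 moved with this choice of arms, from 0.0871% to 0.223%. The order of the members held in each library and in pooled reads, and the count of miRNAs that passed Fisher's test ran from 243 to 262 over the filters, scalings and totals. Between the libraries, another scaling or total moves the log2 ratio of every miRNA by the same amount, 0.13 with TMM, 0.14 with DESeq2 and -0.04 without miR-21a-5p, while the filters leave it as it is. These shifts carried 6 ratios near 0 across it, which were miR-181a-5p (-0.0040) and miR-181b-5p (-0.022) without miR-21a-5p in the totals, miR-181d-5p with TMM (0.12) and DESeq2 (0.13), and miR-181c-3p with TMM (0.053) and DESeq2 (0.068). Depth limits the ratios that rest on miR-181a-2-3p, miR-181b-2-3p and miR-181d-3p, which have 5 counts or fewer in each library. No paired analysis was possible because there is a single condition.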

Other observations

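miR-181b-5p and miR-181d-5p differ by a single substitution, and the share of the less abundant name can be set beside that of other such pairs. Among names with a RefSeq sequence, 12 pairs differ by a single substitution over their shared length, with at least 10000 counts summed for the more abundant name. The less abundant name held from 0.0835% (miR-10b-5p, of the count of miR-10a-5p) to 31.2% (let-7a-5p, of let-7f-5p) of the count of the other. miR-181d-5p stood second from the lowest, with 2.66% of the count of miR-181b-5p in replicate 1 and 2.59% in replicate 2. The next was miR-30a-5p with 5.18% ± 0.733 (SD, n = 2) of the count of miR-30e-5p. The pair of miR-10 gives 0.111% in replicate 1 and 0.0564% in replicate 2. How many reads of an abundant name were counted under its near neighbour was not tested. These pairs were chosen after their values were seen.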
